A study of Saccharomyces cerevisiae with 16 samples.

Results

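The genes described here are 55 genes of budding yeast whose products process ribosomal RNA and assemble ribosomal subunits in the nucleolus. They were taken by symbol from a list of 56 nucleolar processing and assembly genes, and they are 55 of the 4073 genes measured. RRP14, the other listed gene, was not analysed here. The measurements were two-colour microarray ratios of polyA RNA in the W303 background, and all 4 kinds of sample were prepared from both strains. The mutant strain carried esa1-L254P::NatRMX4, a point allele of the gene for the catalytic acetyltransferase subunit of NuA4, and the other strain was wild type at that gene. In each strain, S cells were held for 2 h in alpha factor, the mating pheromone that arrests cells before replication, then washed and released for 1 h into medium with 0.05% MMS or without it (untreated). G1 cells were held in alpha factor for 1 h and then given 0.05% MMS for 1 h or left untreated. MMS, methyl methanesulfonate, is an alkylating agent that methylates DNA bases. Of the 8 comparisons, 4 set MMS against untreated cells of the same strain and phase, and 4 set esa1-L254P against wild type under the same phase and treatment. Every comparison rested on a pair of arrays between which the dyes were exchanged.

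Ribosomal RNA is transcribed in the nucleolus as a long precursor by RNA polymerase I. The growing small subunit is folded around the precursor by the small-subunit processome, which holds the UTP-A, UTP-B and Mpp10 complexes and the U3 box C/D small nucleolar ribonucleoprotein (snoRNP). Large-subunit precursors are built by a separate succession of factors, among them the PeBoW complex, and RNA helicases of the DEAD-box family remodel both. In yeast these genes are known to be expressed together, to follow growth rate and nutrient signals, and to be repressed in many stresses.

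Values are log2 ratios, so that a change of 1 is 2-fold. A value followed by ± is given with its limma standard error. It is the mean over the 2 arrays of a comparison, or a difference or average of such means where the text says so. A positive ratio means higher with MMS or higher in esa1-L254P. A gene is said to fall or rise where its Benjamini-Hochberg adjusted p over all 4073 genes was under 0.05 in limma. Over all genes, the median ratio of each array lay between -0.03 and 0.03, and the median standard error of a comparison was 0.147. The dye term, the difference between the 2 arrays of a comparison once they run the same way, was called for 53% of all genes and for 26 members. Its median over the members was 0.00, with extremes of -0.37 at UTP13 and 0.64 at NOP1. Once turned the same way, both arrays of a comparison correlated across genes at 0.462 to 0.716 in the 4 MMS comparisons. The correlation was 0.163 and 0.290 between the strains in untreated G1 and S cells, and -0.215 and -0.612 between them in G1 and S cells with MMS. The sources do not say whether both arrays of a comparison came from separate cultures, so p-values may measure only technical spread. Because each ratio was taken within 1 phase, levels of marker genes cannot check the phase labels, and the transcript of a point allele cannot check the strain labels.

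With MMS most ribosome biogenesis genes fell in 3 of the 4 comparisons, and fewer fell in wild-type G1 cells. In esa1-L254P S cells 46 of the 55 fell and 0 rose, where 17% of all genes fell and 16.3% rose. In wild-type S cells 52 fell and 0 rose, where 20.7% of all genes fell and 18.2% rose. In esa1-L254P G1 cells 43 fell and 0 rose, where 14.6% of all genes fell and 13.6% rose. In these 3 comparisons the mean of every member was below 0. In wild-type G1 cells 20 fell and 3 rose, where 16.9% of all genes fell and 19.5% rose. With the replicate number as a block, which takes out the dye term, 25 fell and 6 rose in wild-type G1 cells, where 27.6% and 29% of all genes did. The median of the 55 genes was -0.70 in esa1-L254P S cells, -0.91 in wild-type S cells, -0.64 in esa1-L254P G1 cells and -0.27 in wild-type G1 cells, against medians of all genes between -0.03 and 0.02. Members ran from -1.17 to -0.17, from -1.48 to -0.19, from -1.22 to -0.17 and from -1.07 to 0.50 in the same order. In wild-type S cells the means of 20 members were below -1, as were those of 192 of all 4073 genes. In the fits that leave out a replicate, here and below, the share of all genes was not counted. Leaving out replicate 2 left 26 calls in esa1-L254P S cells and 21 in esa1-L254P G1 cells, leaving out replicate 1 left 26 in esa1-L254P G1 cells and 11 in wild-type G1 cells, and the remaining array kept its dye effect. In wild-type G1 cells 1 member rose without replicate 1, and 1 without replicate 2.

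**Figure D1:**
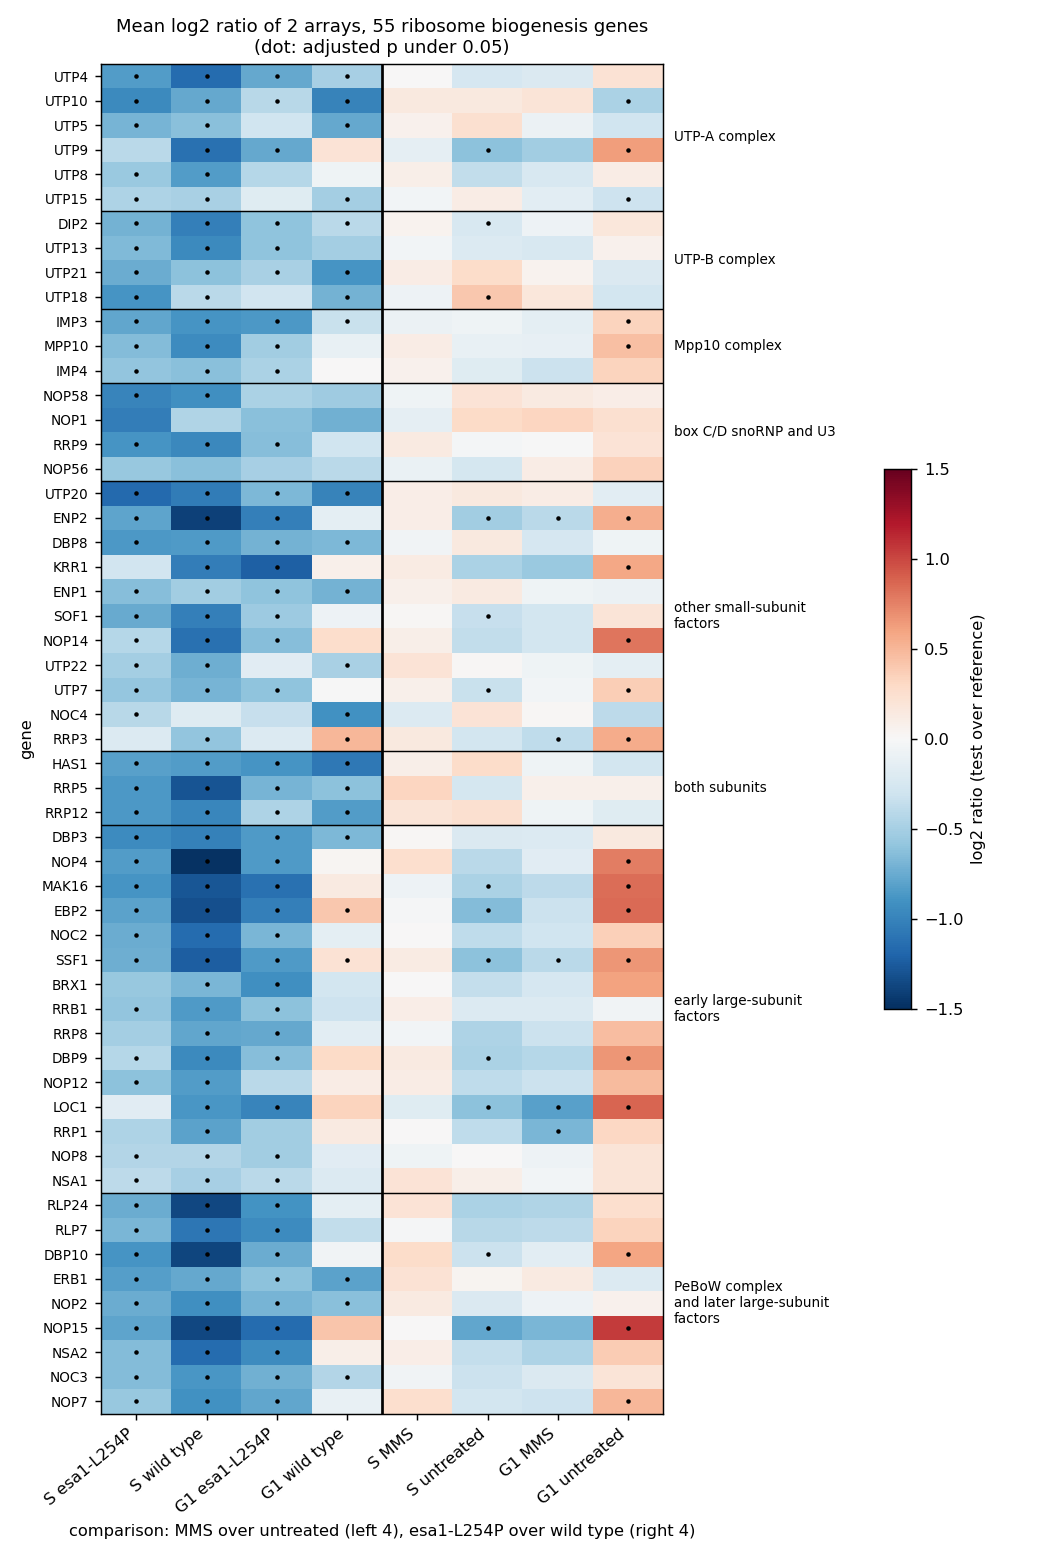
Log2 ratios of the 55 ribosome biogenesis genes (rows, grouped by role) in the 8 comparisons (columns), each the mean of 2 arrays; a dot marks an adjusted p under 0.05 in limma. The first 3 MMS columns are blue in nearly every row, while the column of wild-type G1 cells with MMS holds 20 genes that fell, 3 that rose and 32 without a call.

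On the single arrays the pattern was the same. Of the 55 members, 54 lay below 0 on all 6 arrays of both S comparisons and of esa1-L254P G1, where 18.9% of all genes did. The other one was NOP56, with 0.09 on 1 array of esa1-L254P S cells. On the 2 arrays of wild-type G1 cells, 41 and 37 members lay below 0. Over all 8 MMS arrays, 35 members lay below 0, as did 11.9% of all genes. In the mean of the 4 MMS comparisons 54 members fell, where 27.3% of all genes fell, and the one without a call was RRP3 (-0.13 ± 0.05, adjusted p = 0.0574, with the replicate block 0.0315).

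**Figure D2:**
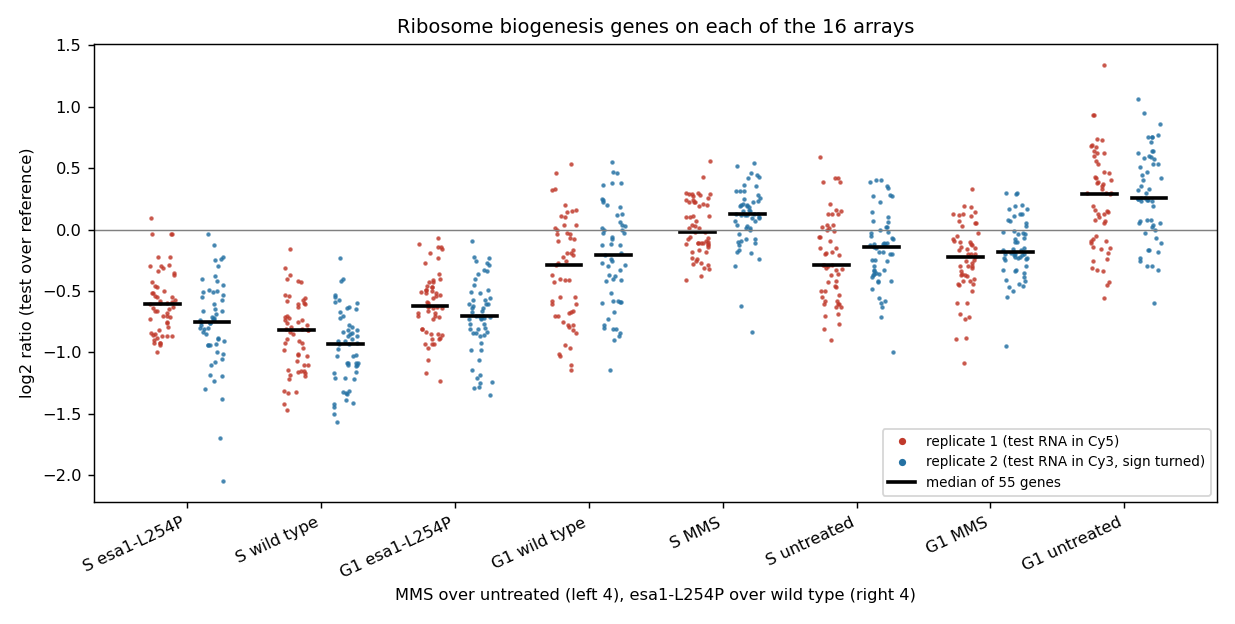
Log2 ratios of the 55 members on each of the 16 arrays, with 1 point per gene and a bar at the members' median. The medians of the 6 MMS arrays from S cells and from esa1-L254P G1 cells lie between -0.93 and -0.61, those of wild-type G1 cells at -0.29 and -0.21.

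Among the 6 UTP-A genes, whose products bind the start of the precursor as it is transcribed, 5 fell in esa1-L254P S cells, 6 in wild-type S cells, 3 in esa1-L254P G1 cells and 4 in wild-type G1 cells. Counts by role, here and below, stand against the 17%, 20.7%, 14.6% and 16.9% of all genes that fell, in the same order. In wild-type G1 cells 19.5% of all genes rose. UTP4 was at -0.92 and -0.75 on the arrays of esa1-L254P S cells, at -1.14 and -1.17 in wild-type S cells, at -0.81 and -0.72 in esa1-L254P G1 cells and at -0.70 and -0.30 in wild-type G1 cells. All 8 arrays were below 0, and the fall passed in each comparison (adjusted p = 0.00161, 0.000192, 0.00348 and 0.0192). UTP10, a large helical-repeat protein of the same complex, gave -0.95 ± 0.10 in esa1-L254P S cells and -1.0 ± 0.10 in wild-type G1 cells, with a smaller fall in esa1-L254P G1 cells (-0.42 ± 0.10, adjusted p = 0.0121). UTP15 went with it, at -0.51 ± 0.09 in wild-type G1 cells (adjusted p = 0.0022) and -0.18 ± 0.09 in esa1-L254P G1 cells (adjusted p = 0.182, with the replicate block 0.0457). UTP9 differed from both: it was at -1.15 and -1.09 in wild-type S cells and at 0.04 and 0.36 in wild-type G1 cells.

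The 4 UTP-B genes encode WD-repeat scaffold proteins, and all of them fell in both strains in S phase. In G1, 3 fell in esa1-L254P and 3 in wild type. DIP2 was at -0.66 and -0.76 in esa1-L254P S cells, at -0.96 and -1.09 in wild-type S cells, at -0.50 and -0.71 in esa1-L254P G1 cells and at -0.40 and -0.41 in wild-type G1 cells. All 8 of its arrays were below 0, and it fell in all 4 comparisons (-0.71, -1.02, -0.60 and -0.40, each ± 0.07). UTP21 fell most in wild-type G1 cells (-0.88 ± 0.09, adjusted p = 0.000105). UTP18 did not pass in esa1-L254P G1 cells (-0.29 ± 0.12, adjusted p = 0.0978), and UTP13 did not pass in wild-type G1 cells (-0.51 ± 0.18, adjusted p = 0.0535, with the replicate block 0.00021).

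IMP3, IMP4 and MPP10 form the Mpp10 complex, which joins U3 to the precursor. Each fell in both S comparisons and in esa1-L254P G1 cells. In wild-type G1 cells IMP3 alone of them fell (-0.55 and -0.12 on its arrays, mean -0.33 ± 0.10, adjusted p = 0.0272). MPP10 was at -0.21 and 0.00 there and IMP4 at 0.15 and -0.13.

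Of the 4 box C/D snoRNP genes, NOP1 and NOP56 had the largest standard errors of a comparison among the members, 0.43 and 0.30. NOP1, the fibrillarin methyltransferase, gave -0.04 and -2.05 on the arrays of esa1-L254P S cells. Its means ran from -1.04 to -0.45 and passed in 0 of the MMS comparisons by limma (1 at an unadjusted p under 0.05), with the lowest adjusted p 0.0893 in esa1-L254P S cells (with the replicate block 0.0205). NOP56, another core protein, likewise passed in 0 (0 at an unadjusted p under 0.05), with means from -0.63 to -0.41 and its lowest adjusted p 0.123 in wild-type S cells (with the replicate block 0.0368). NOP58, a core protein of the same particles, fell in esa1-L254P S cells (-0.60 and -1.38) and in wild-type S cells (-1.07 and -0.78), with adjusted p = 0.00404 and 0.00479. Its means of -0.47 ± 0.20 in esa1-L254P G1 cells and -0.53 ± 0.20 in wild-type G1 cells did not pass (adjusted p = 0.106 and 0.0596, with the replicate block 0.0625 and 0.0369). RRP9, specific to U3, fell in the same 2 comparisons and in esa1-L254P G1 cells (-0.64 ± 0.11, adjusted p = 0.00218).

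Of the 11 other small-subunit factors, 9 fell in esa1-L254P S cells, 10 in wild-type S cells, 8 in esa1-L254P G1 cells and 5 in wild-type G1 cells, where RRP3 rose. UTP20, a very large processome protein, was at -0.64 and -1.70 in esa1-L254P S cells, at -0.89 and -1.21 in wild-type S cells, at -0.63 and -0.70 in esa1-L254P G1 cells and at -1.14 and -0.87 in wild-type G1 cells. It had the lowest value of all members in esa1-L254P S cells (-1.17 ± 0.22, adjusted p = 0.0029) and fell in the 3 others as well. KRR1, an RNA-binding processome protein, had the lowest in esa1-L254P G1 cells (-1.23 and -1.21 on its arrays, adjusted p = 0.000955). The same gene was at -0.04 and 0.20 in wild-type G1 cells, so its arrays in the 2 strains did not overlap. ENP2 gave -1.42 and -1.39 in wild-type S cells and -0.27 and -0.03 in wild-type G1 cells. NOC4 ran the other way, with -0.16 and -0.23 in wild-type S cells (adjusted p = 0.269) and -1.03 and -0.80 in wild-type G1 cells (adjusted p = 0.000438). NOP14, whose product forms a complex with that of NOC4, was at -1.15 and -1.09 in wild-type S cells and at 0.14 and 0.38 in wild-type G1 cells (adjusted p = 0.175, with the replicate block 0.0243). RRP3, a DEAD-box helicase of the small-subunit pathway, was at 0.53 and 0.46 in wild-type G1 cells (adjusted p = 0.00416) and at -0.60 and -0.59 in wild-type S cells (adjusted p = 0.00146).

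RRP5, RRP12 and HAS1 serve both subunits, and these 3 genes fell in each of the 4 MMS comparisons. HAS1, a DEAD-box helicase, was at -0.43 and -1.19 in esa1-L254P S cells, at -0.75 and -0.92 in wild-type S cells, at -0.70 and -1.06 in esa1-L254P G1 cells and at -1.01 and -1.14 in wild-type G1 cells. The mean of -1.07 ± 0.18 in wild-type G1 cells was the lowest of all members there (adjusted p = 0.00122). RRP5, needed for the early cleavages of both pathways, ranged over the comparisons from -1.30 in wild-type S cells to -0.62 in wild-type G1 cells.

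Of the 15 early large-subunit factors, 11 fell in esa1-L254P S cells, in wild-type S cells all 15, and in esa1-L254P G1 cells 13. In wild-type G1 cells 1 fell and 2 rose, and their median was 0.03, against -0.77 in esa1-L254P G1 cells. The one that fell was DBP3, a DEAD-box helicase, at -0.55 and -0.78 in wild-type G1 cells (adjusted p = 0.0391). DBP3 was at -0.57 and -1.30 in esa1-L254P S cells, at -0.81 and -1.21 in wild-type S cells and at -0.52 and -1.18 in esa1-L254P G1 cells. EBP2, needed for processing of the large-subunit precursor, was at 0.33 and 0.47 in wild-type G1 cells (adjusted p = 0.00697) and at -0.93 and -1.14 in esa1-L254P G1 cells (adjusted p = 0.000131). SSF1 was at 0.20 and 0.24 in wild-type G1 cells (adjusted p = 0.0267) and at -0.93 and -0.77 in esa1-L254P G1 cells. For both genes the arrays of the 2 strains lay on opposite sides of 0. SSF1 has a near-identical copy, SSF2, that may bind the same probe. MAK16 fell to -0.89 and -1.35 in esa1-L254P G1 cells, against 0.04 and 0.22 in wild-type G1 cells. NOP4, an RNA-binding protein, had the lowest value of all members in wild-type S cells (-1.47 and -1.50, adjusted p = 3.33e-05) and was at 0.01 and 0.04 in wild-type G1 cells.

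All 9 genes of the PeBoW complex and later large-subunit steps fell in both S comparisons and in esa1-L254P G1 cells. In wild-type G1 cells 3 fell: ERB1 of the PeBoW complex (-0.80 ± 0.09), NOP2, a ribosomal RNA methyltransferase (-0.63 ± 0.12), and NOC3 (-0.44 ± 0.14). RLP24, which holds the place of a ribosomal protein on the precursor, was at -0.75 and -0.74 in esa1-L254P S cells, at -1.32 and -1.42 in wild-type S cells, at -0.83 and -0.98 in esa1-L254P G1 cells and at -0.26 and -0.03 in wild-type G1 cells (adjusted p = 0.646). NOP7, a partner of ERB1, was at -0.17 and -0.06 there, while ERB1 was at -0.79 and -0.81. NOP15, a large-subunit factor, gave -1.06 and -1.25 in esa1-L254P G1 cells and 0.46 and 0.38 in wild-type G1 cells (mean 0.42 ± 0.19, adjusted p = 0.122, with the replicate block 0.00407). DBP10, a DEAD-box helicase, was at -1.33 and -1.44 in wild-type S cells, the third lowest mean there, and at -0.09 and 0.00 in wild-type G1 cells.

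**Figure D3:**
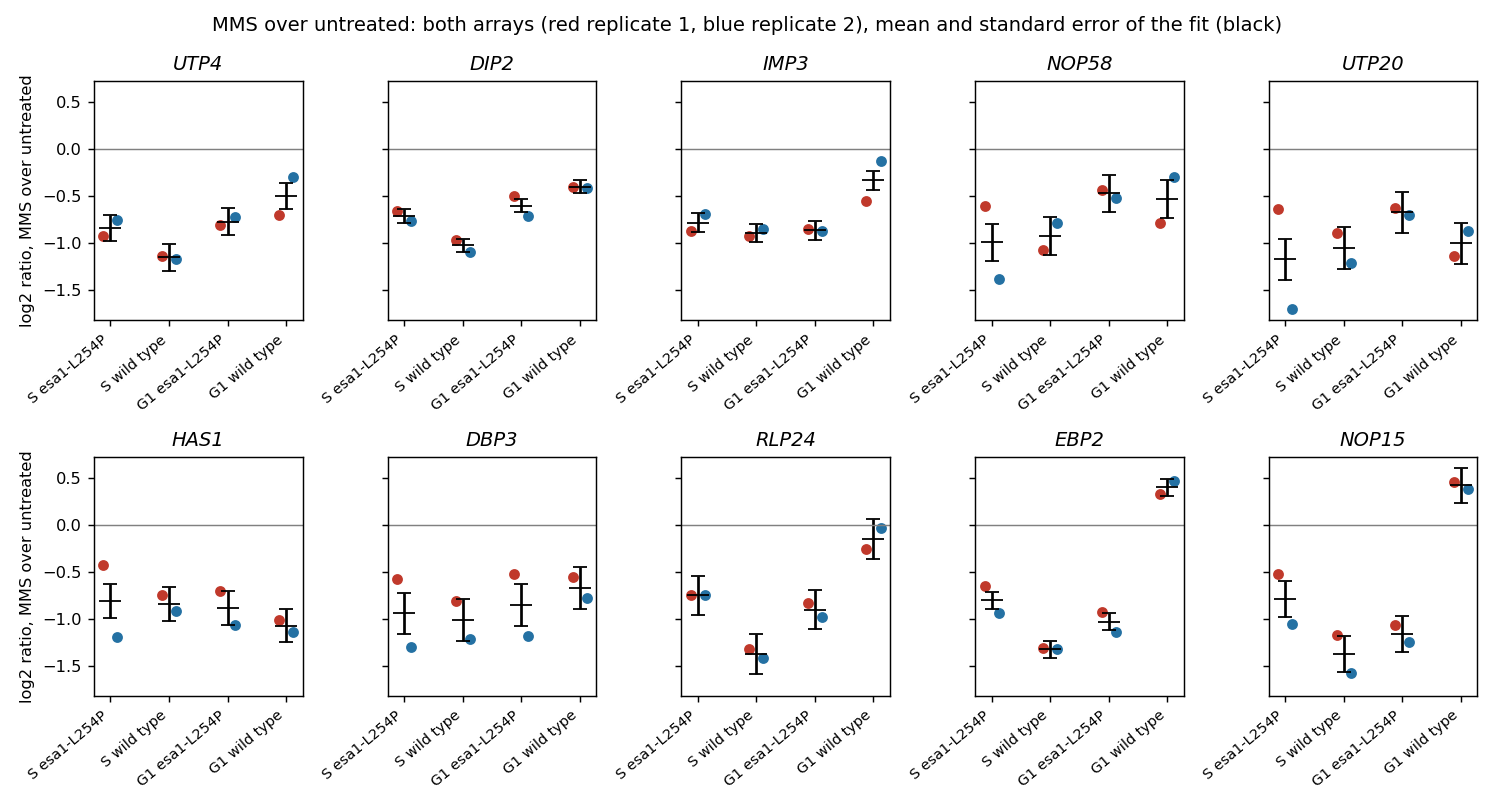
Log2 ratios of MMS over untreated for 10 members, with points for the single arrays and a bar with whiskers for the mean ± standard error in the 4 MMS comparisons. UTP4, DIP2, IMP3, NOP58, UTP20, HAS1, DBP3 and RLP24 stay below 0 on every array shown. EBP2 and NOP15 lie above 0 in wild-type G1 cells and below -0.5 on the 6 other arrays.

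Counted by gene, 15 members fell in all 4 MMS comparisons, where 3.76% of all genes did. With the replicate block 21 members did, and the share of all genes in that fit was not counted. The 15 without the block were UTP4, UTP10, DIP2, UTP21, IMP3, UTP20, ENP1, DBP8, RRP5, RRP12, HAS1, DBP3, ERB1, NOP2 and NOC3. A further 27 fell in 3 comparisons, 9 in 2, RRP3 and RRP1 in 1, and NOP1 and NOP56 in 0. Of the 38 genes that fell in both S comparisons and in esa1-L254P G1 cells, 15 fell in wild-type G1 cells, 21 had no call there, and SSF1 and EBP2 rose. By role, the genes that fell in wild-type G1 cells made up 4 of 6 UTP-A, 3 of 4 UTP-B, 1 of 3 Mpp10, 0 of 4 box C/D, 5 of 11 other small-subunit, 3 of 3 dual-subunit, 1 of 15 early and 3 of 9 later large-subunit genes. Of all genes 16.9% fell there, and the box C/D and early large-subunit counts lie below that share. The difference between roles was not tested.

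The difference between phases in the MMS response was tested within each strain as S minus G1. In wild type 30 members had a lower response in S than in G1 and 1 a higher one, where 18.2% and 14% of all genes did, and the median difference was -0.64. NOP15 had the most negative difference (-1.79 ± 0.28, adjusted p = 0.000961), followed by EBP2 (-1.72 ± 0.13, adjusted p = 3.7e-05), NOP4 (-1.51 ± 0.19, adjusted p = 0.000269) and SSF1 (-1.45 ± 0.09, adjusted p = 2.17e-05). NOC4 was the 1 member with the opposite difference (0.72 ± 0.18, adjusted p = 0.0117). In esa1-L254P 1 member had a lower and 1 a higher response in S, where 4.81% and 5.45% of all genes did, and the median difference was -0.05. These were UTP10 (-0.53 ± 0.14, adjusted p = 0.04) and KRR1 (0.93 ± 0.24, adjusted p = 0.0395). The replicate block raised the count in esa1-L254P to 6, where 27.7% of all genes passed. Leaving out replicate 1 or 2 left 19 or 12 calls in wild type and 1 or 0 in esa1-L254P.

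Averaged over both strains, 18 members had a lower response in S and 0 a higher one by limma (1 at an unadjusted p under 0.05), where 9.87% and 7.39% of all genes did. The median difference was -0.29. With the replicate block 29 were lower and 1 higher, where 19.6% and 15.2% of all genes were, and without replicate 1 or replicate 2 the count was 0. NOP4 (-0.75 ± 0.13), EBP2 (-0.74 ± 0.09), DBP10 (-0.73 ± 0.07) and NOP15 (-0.71 ± 0.19) differed most. The 19 measured genes of the CLB2 cluster, expressed as cells approach mitosis, all fell in both S comparisons, with medians of -1.39 in esa1-L254P and -1.66 in wild type. Of all genes, 17% fell in esa1-L254P S cells and 20.7% in wild-type S cells. SWI5, a transcription factor of that cluster, was at -2.66 ± 0.20 and -2.81 ± 0.20, and CDC5, a mitotic kinase, at -1.98 ± 0.15 and -2.07 ± 0.15 in the same order. In esa1-L254P G1 cells 1 CLB2 cluster gene fell and 1 rose, where 14.6% and 13.6% of all genes did. In wild-type G1 cells 2 fell and 4 rose, where 16.9% and 19.5% of all genes did. The part of cell-cycle position in the values of the ribosome biogenesis genes was not tested.

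Direct comparison of the strains in untreated cells gave opposite medians in the 2 phases. In untreated S cells 12 members were lower in esa1-L254P and 1 was higher, where 12.2% and 9.4% of all genes were, and the median was -0.26. The replicate block gave 23 lower and 4 higher, where 21.5% and 18.3% of all genes were, and leaving out replicate 1 or 2 left 2 or 3 calls. NOP15 was at -0.55 and -1.0 (adjusted p = 0.0191), EBP2 at -0.69 and -0.60 (adjusted p = 0.00139) and UTP9 at -0.90 and -0.35 (adjusted p = 0.028). UTP18 was the 1 member higher in esa1-L254P, at 0.42 and 0.40 (adjusted p = 0.0338).

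In untreated G1 cells 17 members were higher in esa1-L254P and 2 were lower, where 13.7% and 8.27% of all genes were, and the median was 0.24. With the replicate block 25 were higher and 4 lower, where 24.7% and 19% of all genes were, and leaving out replicate 1 or 2 left 10 or 7 calls in all. NOP15 led, at 1.34 and 0.75 on its arrays (1.05 ± 0.19, adjusted p = 0.00424). LOC1, an RNA-binding protein of large-subunit assembly, was at 0.68 and 1.06 (adjusted p = 0.00711), and EBP2 at 0.93 and 0.77 (adjusted p = 0.000448). These 3 genes were higher in esa1-L254P in untreated G1 cells and lower in esa1-L254P in untreated S cells, on every array (LOC1 in S at -0.81 and -0.43, adjusted p = 0.0338). Lower were UTP10, at -0.34 and -0.60 (adjusted p = 0.00814), and UTP15, at -0.31 and -0.30 (adjusted p = 0.0435), both of the UTP-A complex.

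With MMS fewer members were called between the strains. Once turned the same way, both arrays correlated across genes at -0.215 in G1 cells with MMS and -0.612 in S cells with MMS. Few calls there therefore cannot show that the strains were alike. In G1 cells with MMS 5 members were lower in esa1-L254P and 0 were higher by limma (0 also at an unadjusted p under 0.05), where 4.98% and 5.38% of all genes were, and the median was -0.21. LOC1 was at -1.09 and -0.55 (adjusted p = 0.0212), RRP1 at -0.89 and -0.46 (adjusted p = 0.0388) and ENP2 at -0.44 and -0.39 (adjusted p = 0.0376). The replicate block gave 19 lower and 0 higher, where 14% and 15.2% of all genes were, and leaving out replicate 1 or 2 left 0 or 2. In S cells with MMS limma called 0 members, with or without the replicate block, where 0.0737% of all genes passed without it and 2.38% with it. There 4 members had an unadjusted p under 0.05, the median was 0.08 and members ran from -0.20 to 0.32.

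Each strain's MMS response was then set against the other's within a phase, as esa1-L254P minus wild type, averaged over the MMS ratios and the strain ratios of that phase. In G1, 28 members had a lower response in esa1-L254P and 5 a higher one, where 21.6% and 20.3% of all genes did, and the median difference was -0.36. NOP15 (-1.65 ± 0.19, adjusted p = 0.000137), LOC1 (-1.50 ± 0.18, adjusted p = 0.000146), EBP2 (-1.30 ± 0.09, adjusted p = 7.99e-06) and MAK16 (-1.23 ± 0.11, adjusted p = 2.95e-05) differed most. By role, a lower response was called in 11 of 15 early and 6 of 9 later large-subunit genes, in 3 of 3 Mpp10, 6 of 11 other small-subunit, 1 of 6 UTP-A and 1 of 4 UTP-B genes, and in 0 of 4 box C/D and 0 of 3 dual-subunit genes. The difference between roles was not tested. The 5 with a higher response in esa1-L254P included UTP10 (0.62 ± 0.10, adjusted p = 0.000835), NOC4 (0.49 ± 0.13, adjusted p = 0.0109), UTP18 (0.43 ± 0.12, adjusted p = 0.0156) and UTP21 (0.33 ± 0.09, adjusted p = 0.0174). The replicate block gave 36 lower and 8 higher, where 31.6% and 31.4% of all genes were. Leaving out replicate 1 or 2 left 18 or 14 calls in all.

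In S the difference ran the other way for most called members: 18 had a higher response in esa1-L254P, that is a smaller fall, and 1 a lower one, where 13.6% and 8.99% of all genes did. The median difference was 0.27. NOP15 (0.68 ± 0.19, adjusted p = 0.032), KRR1 (0.67 ± 0.17, adjusted p = 0.0204), NOP4 (0.65 ± 0.13, adjusted p = 0.00678) and ENP2 (0.62 ± 0.11, adjusted p = 0.00328) led, and UTP18 was the 1 lower gene (-0.48 ± 0.12, adjusted p = 0.0168). The replicate block gave 28 higher and 2 lower, where 23.5% and 21.1% of all genes were, and without replicate 1 or replicate 2 the count was 0. Both ways to form the difference gave like values for the members. They rest on the same conditions of a phase, so their likeness is no separate test of it. The median gap between them was 0.14 in G1 and 0.11 in S over members, and 0.11 in each phase over all genes. In G1 the median over members was -0.37 from the MMS ratios and -0.41 from the strain ratios, and in S it was 0.26 and 0.30, with the largest gap for a member 0.38 in G1 and 0.29 in S.

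**Figure D4:**
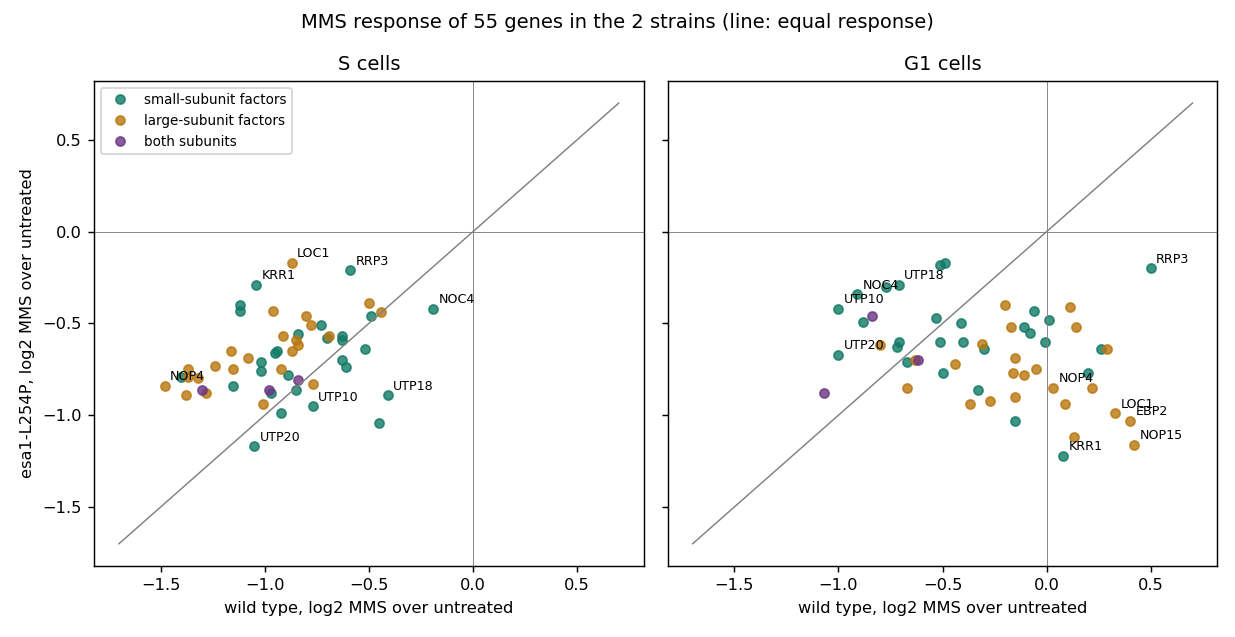
Log2 ratio of MMS over untreated in esa1-L254P (vertical axis) against wild type (horizontal axis) for the 55 members, coloured by the subunit they serve, in S cells (left) and G1 cells (right), with a line of equal values and some genes named. The members' median difference between the strains' MMS ratios is 0.26 in S and -0.37 in G1, where EBP2 and NOP15 lie at 0.40 and 0.42 in wild type and at -1.03 and -1.16 in esa1-L254P.

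Members differed in coding length, which ran from 552 to 7482 bases with a median of 1572, against 1338 over all genes. Across the members, the ratio in wild-type G1 cells fell with length (Spearman's rho -0.43, n = 55 genes, against -0.14 over 4065 genes), at -0.45 and -0.41 on its arrays, where all genes gave -0.23 and -0.04. The 18 shortest members, of at most 1392 bases, had a median of 0.05 there, and the 19 longest, of at least 1857 bases, had -0.50. In esa1-L254P G1 cells the order was the opposite, with medians of -0.88 and -0.64 and a rho of 0.37 (0.17 and 0.49 on its arrays), and over all genes the rho was 0.26. In S cells rho over the members was -0.26 in esa1-L254P (-0.41 and 0.01 on its arrays) and -0.08 in wild type. Between the strains in untreated G1 cells, a comparison that shares the untreated wild-type G1 condition with the MMS comparison of that strain, rho was -0.41 (-0.40 and -0.36 on its arrays). Over all genes it was -0.26 there (-0.34 and -0.04 on the arrays). In the other strain comparisons rho over members was 0.5 in G1 with MMS, 0.34 in untreated S and 0.41 in S with MMS. Over all genes these were 0.27, 0.1 and 0.23. The genes share arrays and are not independent, and the part of length in the differences between members was not tested.

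**Figure D5:**
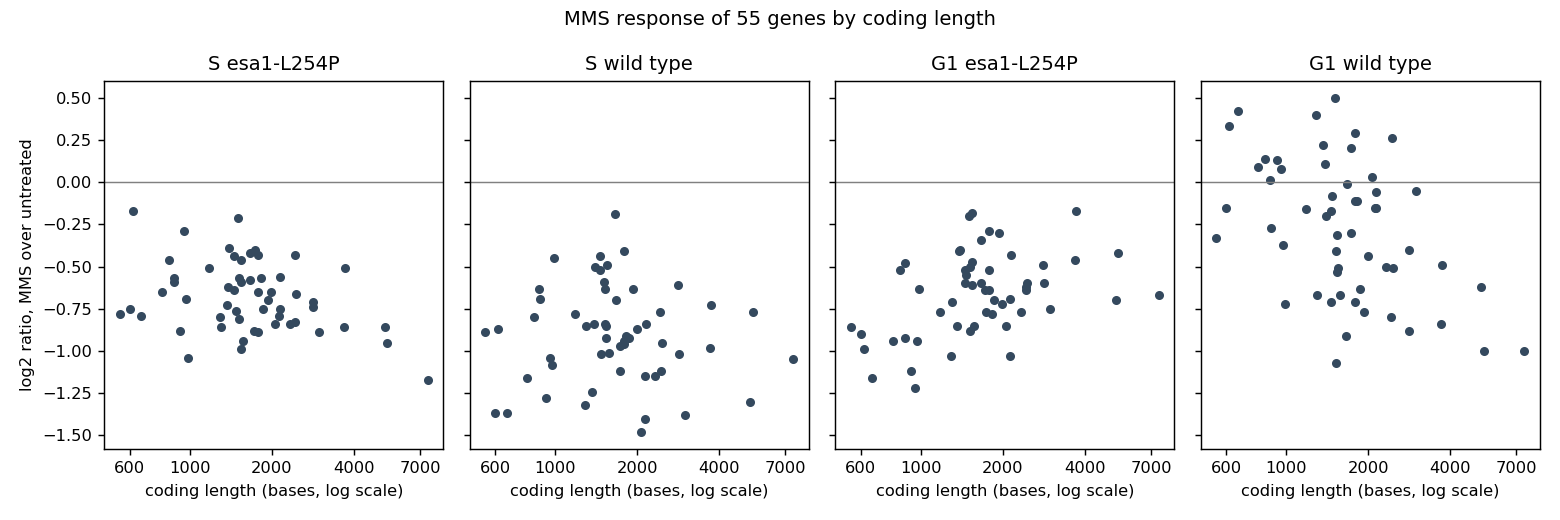
Log2 ratio of MMS over untreated (vertical axis) against coding length in bases (horizontal log axis) for the 55 members, with 1 panel per MMS comparison. In wild-type G1 cells the 18 shortest members centre on 0.05 and the 19 longest on -0.50, while in esa1-L254P G1 cells they centre on -0.88 and -0.64.

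Other genes of the pathway were read from lists drawn from general knowledge, and their counts stand against the 17%, 20.7%, 14.6% and 16.9% of all genes that fell in esa1-L254P S, wild-type S, esa1-L254P G1 and wild-type G1 cells. Of 64 measured further assembly factors, 48 fell in esa1-L254P S cells, 58 in wild-type S cells, 51 in esa1-L254P G1 cells and 25 in wild-type G1 cells, where 8 rose. Their medians of -0.65, -0.91, -0.71 and -0.30 lay near those of the members. DBP2, an RNA helicase, fell most in esa1-L254P S cells (-2.35 ± 0.38, adjusted p = 0.00127), and DHR2, a helicase of the small-subunit pathway, fell in each comparison (-1.35 to -1.16). Of the 8 RNA polymerase I genes 8, 7, 5 and 5 fell in the same order of comparisons. RPA190, the largest subunit of that enzyme, was at -0.84, -1.02, -0.55 and -0.91 (each ± 0.17), and RPA135 did not pass in esa1-L254P G1 cells (-0.40 ± 0.26, adjusted p = 0.289). Of 12 RNA polymerase III genes 4, 8, 8 and 3 fell and 1 rose in wild-type G1 cells, with RPC31 between -1.16 and -0.40 and RPC82 between -0.88 and -0.61.

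Of 6 box H/ACA snoRNP genes, which guide pseudouridylation, 3, 2, 3 and 1 fell, and 1 rose in wild-type G1 cells. CBF5, the pseudouridine synthase, was at -0.97, -1.23, -0.68 and -0.35, and NHP2 fell in esa1-L254P G1 cells (-1.15 ± 0.32, adjusted p = 0.0245). Of 12 nuclear exosome genes and cofactors 5, 4, 2 and 2 fell, in both G1 comparisons a share near that of all genes. MTR4, the exosome helicase, fell in each comparison (-1.23 to -0.68), and RRP6, the nuclear exonuclease, did not pass in esa1-L254P G1 cells (-0.27 ± 0.09, adjusted p = 0.0532, with the replicate block 0.0135). Among 11 regulators of ribosome synthesis 5, 4, 1 and 6 fell, and 1 rose in esa1-L254P G1 cells, where their median was 0.16. With the replicate block 6 rose there, as did 971 of all 4073 genes. IFH1, a coactivator of ribosomal protein genes, fell in all 4 (-1.08, -1.25, -0.64 and -0.48, each ± 0.09), and TOR1, the growth kinase, did not pass in esa1-L254P G1 cells (0.16 ± 0.07, adjusted p = 0.144, with the replicate block 0.0176).

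The 135 cytosolic ribosomal protein genes had medians of -0.97 in esa1-L254P S cells, -0.82 in wild-type S cells, -1.41 in esa1-L254P G1 cells and -0.19 in wild-type G1 cells. Only 4, 3, 2 and 2 of them passed. With the replicate block 123, 103, 131 and 39 fell, where 1235, 1316, 1119 and 1124 of all 4073 genes did (27.6% in wild-type G1 cells). Their dye term had a median of 2.05 and was called in 133 of 135, in contrast to the members' median of 0.00. RPL18B and RPL9B had the lowest means among called genes of that list. Of the MMS comparisons, RPL18B passed only in esa1-L254P S cells (-1.15 ± 0.31, adjusted p = 0.0175) and wild-type G1 cells (-0.93 ± 0.31, adjusted p = 0.0402). RPL9B did not pass there (-0.77 ± 0.29, adjusted p = 0.0703, and -0.39 ± 0.29, adjusted p = 0.336). It fell in wild-type S cells (-1.19 ± 0.29, adjusted p = 0.0101) and esa1-L254P G1 cells (-1.20 ± 0.29, adjusted p = 0.0137). Both genes have near-identical copies, so their probes may read more than 1 gene.

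General stress genes moved in the opposite direction. Of 20, 13 rose in esa1-L254P S cells, 13 in wild-type S cells, 16 in esa1-L254P G1 cells and 10 in wild-type G1 cells. In the same order 16.3%, 18.2%, 13.6% and 19.5% of all genes rose. HSP104, a disaggregase, was at 1.36 ± 0.33, 0.85 ± 0.33, 1.26 ± 0.33 and 1.33 ± 0.33 in the same order, and did not pass in wild-type S cells (adjusted p = 0.0656). HSP42, a small heat shock protein gene, rose in each (0.87, 1.13, 1.31 and 1.32, each ± 0.22). CTT1, the cytosolic catalase, fell in both G1 comparisons (-0.30 in esa1-L254P and -0.53 in wild type, each ± 0.09).

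Over the 8 comparisons, a member correlated with the median member at a median Pearson's r of 0.914, and 38 of 55 were above 0.8, as were 9.46% of the 4018 other genes. The comparisons share conditions, so these are descriptions over 8 points that are not independent. The lowest were NOC4 (0.025), UTP18 (0.399), UTP15 (0.437), UTP10 (0.498) and UTP5 (0.517). Of these UTP5, UTP10 and UTP15 belong to UTP-A, whose other genes were at 0.987 (UTP4), 0.947 (UTP8) and 0.799 (UTP9). Outside the list, the genes most like the median member were GZF3 (0.993), which encodes a GATA-type transcription factor, RPC31 (0.990) of RNA polymerase III, TRM8 (0.989), a transfer RNA methyltransferase, SPB1 (0.988), a ribosomal RNA methyltransferase, and DUS1 (0.988), a dihydrouridine synthase.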

How the data were processed

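Gene expression was measured on 16 two-colour arrays. The values are the log2 ratios the authors deposited, with R 3.1.1 and limma 3.0 per the submitters' processing notes. Base and direction were not stated and were taken as 2 and Cy5 over Cy3. Background correction, normalization and annotation build are not given in the sources used here. Replicate 1 carried the test RNA in Cy5 and replicate 2 in Cy3, per the labels, so replicate 2 was multiplied by -1.

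Rows did not follow the platform's probe numbers (duplicate spots then correlated at -0.033 to 0.027). Of 8036 orderings scored on 2035 genes by agreement of duplicate spots, the best scored 2.933 and the next 0.095. In 2035 other genes the chosen one gave correlations of 0.677 to 0.948. Of 15744 spots, 7592 had no single gene symbol and were not used. The other 8152 were averaged into 4073 genes, with 125 symbols updated through the R64 table, among them UTP19 (now NOC4) and SIK1 (now NOP56).

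One limma 3.58.1 model in R 4.3.3 was fitted to the 16 arrays, with a coefficient for each comparison and 8 residual degrees of freedom, so that comparisons share the estimate of the spread. Differences of responses were contrasts in it. The Benjamini-Hochberg threshold was 0.05. The model was run on simulated data with independent noise on each array and no dye effect. That run cannot show how a shared dye effect acts on the calls. Arrays with the same replicate number, and so the same dye orientation, deviated together (correlations of 0.619 to 0.892 over 28 pairs of comparisons). An alternative fit therefore held that number as a block. The other alternatives were median centring, scaling arrays to one spread, single spots, leaving out genes whose spots disagreed, leaving out a replicate, and only the 2 arrays of a comparison.

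Members and lists were chosen with earlier results of these data known. Named were, per role, the member with the largest mean MMS change, per comparison up to 3 called members per direction, in difference tests up to 4, every called member against the main direction, up to 2 genes per direction in other lists, and the 5 genes most like the median member. Further members, chosen after their values were seen, show contrasts within a role. Promoters and proteins were not analysed here.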

Additional observations from a re-analysis of the deposited data

Results flagged for a closer look

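The results set out here are differences between phases or strains in the response to MMS that passed their own limma test; each is given with its difference in log2 units. Between the phases (S minus G1), 1 member was lower and 1 higher in esa1-L254P, namely UTP10 at -0.53 and KRR1 at 0.93, where 4.81% and 5.45% of all genes were, so both counts lie below the share of all genes. In wild type 30 were lower and 1 higher, where 18.2% and 14% of all genes were, with NOP15 at -1.79, EBP2 at -1.72, NOP4 at -1.51 and SSF1 at -1.45, against NOC4 at 0.72. Averaged over both strains 18 were lower and 0 higher by limma (1 at an unadjusted p under 0.05), where 9.87% and 7.39% of all genes were, with NOP4 at -0.75, EBP2 at -0.74, DBP10 at -0.73 and NOP15 at -0.71.

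Between the strains (esa1-L254P minus wild type), 1 member was lower and 18 were higher in S, where 8.99% and 13.6% of all genes were, with UTP18 at -0.48 and NOP15 at 0.68, KRR1 at 0.67, NOP4 at 0.65 and ENP2 at 0.62. In G1, 28 were lower and 5 higher, where 21.6% and 20.3% of all genes were. Lowest were NOP15 at -1.65, LOC1 at -1.50, EBP2 at -1.30 and MAK16 at -1.23. Highest were UTP10 at 0.62, NOC4 at 0.49, UTP18 at 0.43 and UTP21 at 0.33. NOP15 and UTP18 stand in both phases with opposite signs. Whether the strain differences themselves differ between phases was not tested.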

How the results depend on the processing

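Among the results named by rule, 0 were reversed under the alternatives run. Members named outside that rule were not counted. NOP56 in esa1-L254P S cells, for example, was at 0.09 on replicate 1 and at -1.23 on replicate 2. Of 79 named results, 78 kept their call with the replicate block and 1 gained it, 77 kept it with median centring, 79 without genes whose spots disagreed, 64 with arrays scaled to one spread, 66 with the first and 61 with the second spot only, 45 without replicate 1 and 41 without replicate 2. With only the 2 arrays of a comparison, which gives no value for differences between comparisons, 18 kept their call and 37 lost it. With the replicate block the counts of called members became 27 in untreated S and 29 in untreated G1 between the strains, 19 in G1 with MMS between the strains, 6 for S minus G1 in esa1-L254P, 30 for S minus G1 over both strains and 30 for the strain difference in S. It also raised the members that rose to 6 in wild-type G1 with MMS and those with a higher response in the G1 strain difference to 8. It moved no other of these counts by over 1.5 times. Using only the 2 arrays of a comparison (1 residual degree of freedom) gave 0 calls in esa1-L254P with MMS in S and in G1, 15 in wild-type G1 with MMS, and 0 between the strains in untreated S, in untreated G1 and in G1 with MMS. Median centring gave 9 in G1 with MMS between the strains. Scaling gave 2 in S with MMS and 8 in G1 with MMS between the strains, and 0, 19 and 8 for S minus G1 in esa1-L254P, wild type and both. The first spot alone gave 7 and 3 in untreated S and in G1 with MMS between the strains and 0 for S minus G1 in esa1-L254P. The second spot alone gave 15 in wild-type G1 with MMS, 8 and 2 in untreated S and in G1 with MMS between the strains, 20 and 8 for S minus G1 in wild type and over both strains, and 9 for the strain difference in S. The cause of these shifts was not tested, except that fewer arrays leave fewer degrees of freedom. Leaving out replicate 1 or 2 gave 26 to 35 calls in esa1-L254P S with MMS, 37 to 43 in wild-type S, 21 to 26 in esa1-L254P G1 and 11 to 17 in wild-type G1. It gave 2 to 3 between the strains in untreated S, 7 to 10 in untreated G1, 0 to 2 in G1 with MMS and 0 in S with MMS. It gave 0 to 1, 12 to 19 and 0 for S minus G1 in esa1-L254P, wild type and both, 0 for the strain difference in S and 14 to 18 in G1. In these fits the lone array of a comparison was assumed to vary like the others and kept its dye effect. Calls over all genes were counted only in the main fit and with the replicate block. The counts from the other alternatives therefore have no share of all genes beside them. The number of arrays limits the precision, and signal over background was not analysed here.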

Other observations

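By the R64 annotation, 4 pairs of neighbouring measured genes joined a member to another member or to a gene of the further assembly factor, box H/ACA and RNA polymerase I lists. Neighbours outside those lists were not looked at. RRP3 and SSF1, both members and the genes that rose in wild-type G1 cells together with EBP2, are neighbours, and their ratios correlated at 0.93 over the 8 comparisons. NSA2 and LCP5 correlated at 0.92, DBP8 and NMD3 at 0.93, and NOP56 and PWP1 at 0.82. The median over all 1485 pairs of members was 0.81. The comparisons share conditions, so these are descriptions.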
